A study of Rattus norvegicus with 12 samples.

Results

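Articular chondrocytes of injured rat knees treated with Lipo-CGS were compared with chondrocytes of uninvolved knees, to ask which programs of gene expression remained different after agonist treatment. The comparison takes the 3 Lipo-CGS libraries and the 3 uninvolved-knee libraries, chosen by their column names, which are 6 of the 12 libraries of the series. Lipo-CGS is a liposome of phosphatidylcholine and cholesterol loaded with CGS21680, a synthetic agonist of the adenosine A2A receptor. It was injected into knees of male Sprague Dawley rats with established post-traumatic osteoarthritis after a closed rupture of the anterior cruciate ligament. The other 2 groups, with 3 libraries each, are injured knees given empty liposomes (Lipo) and injured knees given saline (Saline), and serve here as points of orientation. The uninvolved knees were the unaffected ones, so that injury, liposome and agonist all differ between the groups compared and cannot be told apart in these 2 groups alone. The cartilage of 3 animals was combined for each library, the cells were released with enzymes and put in culture, and the sources do not state the age of the rats, or which libraries share animals. The p-values therefore measure only the spread between these pooled libraries.

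Articular cartilage holds a single resident cell type, the chondrocyte, which keeps up a matrix of type II collagen and aggrecan. In osteoarthritis the cells can turn to matrix-degrading enzymes, to fibrous collagens or to the hypertrophic program that precedes calcification. The A2A receptor couples to the stimulatory G protein and raises cyclic AMP, whereas the immediate early genes, which encode short-lived transcription factors such as FOS and EGR1, respond within minutes to growth factors, stretch and cell handling. Values are FPKM (fragments per kilobase of transcript, scaled to library size) as deposited. Differences are log2 fold changes of Lipo-CGS minus uninvolved on the scale of log2(FPKM + 0.5), which understates the change of weakly expressed genes. The test was limma's, fitted to the 11373 genes that reached 1 FPKM in 3 or more libraries. Genes are called where the adjusted p is below 0.05 and the fold change exceeds 1.5. In such bulk libraries, fewer cells of a type and less RNA per cell cannot be told apart.

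The chondrocyte label was checked against markers, of which Col2a1, Acan and Sox9 were far above the filter in both groups. Cnmd, a further marker described below, had only 2.36, 1.12 and 3.31 FPKM in uninvolved knees. Col2a1, the collagen of hyaline cartilage, had 13372, 9092 and 10454 FPKM in Lipo-CGS, against 6744, 7348 and 7786 FPKM in uninvolved knees, and Acan, the core protein of aggrecan, had 1763, 1159 and 1491 FPKM in Lipo-CGS, against 922, 888 and 1154 FPKM in uninvolved knees. Sox9, the transcription factor that specifies chondrocytes, had 46.7, 44.4 and 45.4 FPKM in Lipo-CGS, against 54.95, 46.8 and 46.1 FPKM in uninvolved knees. Of 21 leukocyte markers 4 reached the filter, and the summed level of the 21 was 27.6 to 37.6 FPKM in Lipo-CGS and 45.9 to 72.8 FPKM in uninvolved knees. The sum of 18 fibroblast and synovial markers was 4697 to 4897 FPKM in Lipo-CGS and 5818 to 9411 FPKM in uninvolved knees, most of it from S100a4 and Vim, and that of 14 endothelial and mural markers was 111 to 131 FPKM in Lipo-CGS and 124 to 131 FPKM in uninvolved knees. The most abundant endothelial and mural marker was Cspg4, with at most 101 FPKM in any of the 12 libraries. That of the leukocyte list was Cd14, with at most 56.85 FPKM. The 15 bone cell markers summed to 129 to 146 FPKM in Lipo-CGS and 139.8 to 278 FPKM in uninvolved knees. Most of that sum came from Col1a1 and Ibsp, which also stand in the fibrous matrix and the hypertrophy list. Of the leukocyte markers, Ptprc, the common leukocyte antigen, had 0, 0 and 0 FPKM in Lipo-CGS and 0, 0 and 0.02 FPKM in uninvolved knees. Lyz2, a lysozyme of myeloid cells, had 0.08, 0.10 and 0.17 FPKM in Lipo-CGS, against 0.42, 0.22 and 0.20 FPKM in uninvolved knees, and reached 10.3 FPKM in Saline 3. Cd3e and Cd163 are listed at 0 in all 12 libraries, but so are Hsp90aa1 and Tpi1, which every cell uses, so that a listed 0 does not show absence. Among tested leukocyte markers calls of lower level were made for Cd14, Cd79a and Cd68, a count of 3 that was 1 without Lipo-CGS 2 or Uninvolved 1. The endothelial markers Cdh5, Vwf and Kdr had at most 0.11 FPKM in any of the 12 libraries. The part of other cells in the results below was not tested. The total of all FPKM values was 421981 to 440911 in Lipo-CGS and 441989 to 544170 in uninvolved knees, and 10858 to 11011 genes reached 1 FPKM in each of these libraries.

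Of 11373 genes tested, 1331 were higher in Lipo-CGS than in uninvolved knees (11.7% of those tested) and 1595 were lower (14.0%), with a median log2 fold change of 0.01 over all genes. The counts of list members below are to be read against these shares. Without the fold threshold, 5653 genes had an adjusted p under 0.05. The libraries of the 2 groups did not overlap for 6756 genes, of which 3251 were higher and 3505 lower in Lipo-CGS. By contrast, Lipo-CGS differed from Lipo in 9 genes called higher (0.0791% of those tested) and 10 called lower (0.0879%), counts that ranged widely with the settings. Against Saline, 936 genes were higher (8.23%) and 1174 lower (10.3%) in Lipo-CGS. Lipo set against the same uninvolved libraries gave 1608 higher and 1856 lower, and Saline against uninvolved knees gave 0, with 566 genes at an unadjusted p under 0.05 in limma, the only tool run. Since comparisons with uninvolved knees share the uninvolved libraries, their values are set side by side below and not correlated.

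**Figure D1:**
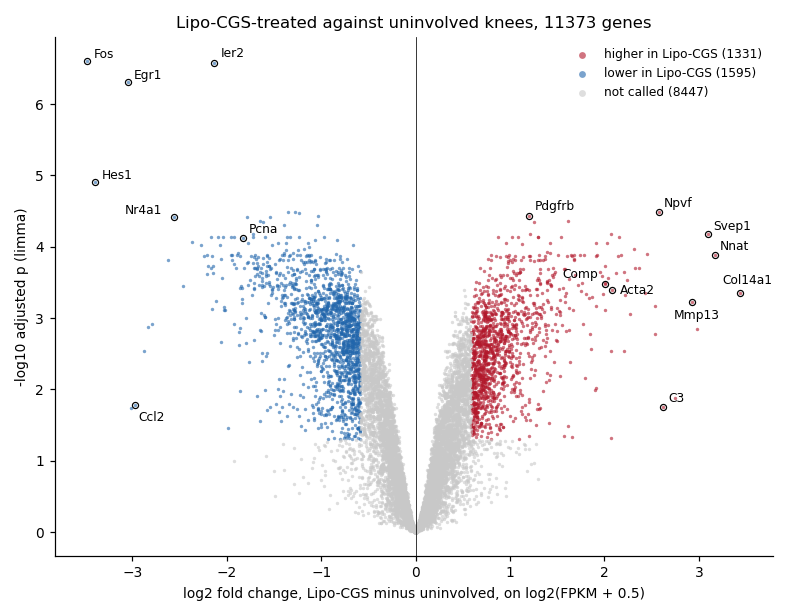
Each point is 1 of 11373 genes, with the log2 fold change of Lipo-CGS minus uninvolved knees (3 libraries each) on the horizontal axis and -log10 of the limma adjusted p on the vertical axis. Red points are the 1331 genes called higher and blue points the 1595 called lower, and immediate early genes such as Fos, Egr1 and Ier2 stand at the upper left.

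The 3 deepest falls, of Fos, Hes1 and Egr1, were of immediate early genes, where 20 of 27 tested members were lower and 1 was higher (median log2 fold change -1.04, against 0.01 over all genes). Fos, a subunit of the AP-1 transcription factor, had 6.66, 6.11 and 6.0 FPKM in Lipo-CGS libraries, 3.07, 4.0 and 5.03 FPKM in Lipo libraries, 99.3, 92.5 and 94.1 FPKM in Saline libraries and 68.5, 86.6 and 69.9 FPKM in uninvolved knees. The Lipo-CGS and Lipo libraries stood together far below the Saline and uninvolved ones, and no Lipo-CGS library overlapped an uninvolved one (log2 fold change -3.48 ± 0.14 (SE), adjusted p = 2.47e-07). Egr1, a zinc finger factor induced by serum and stretch, had 14.3, 19.2 and 14.3 FPKM in Lipo-CGS libraries, 17.4, 12.04 and 12.6 FPKM in Lipo libraries, 132, 135 and 138 FPKM in Saline libraries and 125, 147 and 130.3 FPKM in uninvolved knees. Egr1 differed from uninvolved knees by -3.05 ± 0.15 (SE), adjusted p = 4.90e-07. Hes1, a repressor best known as a Notch target, had 7.69, 7.33 and 6.33 FPKM in Lipo-CGS, against 82.2, 104 and 59.3 FPKM in uninvolved knees (-3.4 ± 0.22 (SE), adjusted p = 1.25e-05), and the nuclear receptor gene Nr4a1 had 6.73, 5.65 and 6.76 FPKM in Lipo-CGS, against 38.3, 52.5 and 31.5 FPKM in uninvolved knees (-2.56 ± 0.21 (SE), adjusted p = 3.83e-05). In each of these genes all 3 Lipo-CGS libraries lay below all 3 uninvolved libraries, which the rule for naming the largest falls required. The same held for 3505 of all 11373 genes tested. Ier2 had the smallest SE of the 5 genes, with 24.3, 26.03 and 25.2 FPKM in Lipo-CGS, against 122, 120.1 and 96.2 FPKM in uninvolved knees (-2.13 ± 0.09 (SE), adjusted p = 2.64e-07).

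Other AP-1 subunits moved in different measure. Fosl1 (-2.47, adjusted p = 3.55e-04), Jun (-2.09, adjusted p = 7.23e-05), Fosb (-2.06, adjusted p = 1.48e-04) and Jund (-0.69, adjusted p = 0.00236) were lower in Lipo-CGS. Fosl2 was the member that was higher, with 27.5, 17.97 and 21.7 FPKM in Lipo-CGS, against 9.16, 10.3 and 10.4 FPKM in uninvolved knees (1.11 ± 0.18 (SE), adjusted p = 8.05e-04). Junb had 61.4, 39.6 and 57.04 FPKM in Lipo-CGS libraries, 19.8, 25.4 and 26.6 FPKM in Lipo libraries, 188, 217 and 192 FPKM in Saline libraries and 223, 227 and 163 FPKM in uninvolved knees. It was lower than in uninvolved knees (-1.95 ± 0.18 (SE), adjusted p = 7.23e-05) and higher than in Lipo (1.11 ± 0.18 (SE), adjusted p = 0.0373), so that Lipo-CGS lay between those groups. Members of the list that were not called included Socs3, a feedback inhibitor of cytokine signaling, at 0.04 (95% interval -0.26 to 0.34), and Srf at -0.30 (adjusted p = 0.0212).

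Promoter sequences are shown for members of the immediate early and the cell cycle list, since genes of both kinds are known for short motifs near their starts. They come from RefSeq on the GRCr8 assembly, read 5′ to 3′ on the gene's strand and end at the base before the annotated start, with the motif in capitals. The motifs were sought on both strands in the 250 bases upstream, for the first listed start of each gene. Ier2 has the cyclic AMP response element TGACGTCA starting 66 bases upstream of its start (chr19:40399253-40399372, plus strand):
Ier2: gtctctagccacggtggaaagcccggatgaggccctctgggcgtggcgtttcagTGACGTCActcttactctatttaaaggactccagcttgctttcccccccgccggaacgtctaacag
Zfp36, which encodes an mRNA decay factor and had 26.99, 23.2 and 27.6 FPKM in Lipo-CGS, against 68.98, 60.9 and 55.6 FPKM in uninvolved knees (-1.24 ± 0.09 (SE), adjusted p = 3.41e-05), has a CArG box, the site bound by serum response factor, starting 32 bases upstream (chr1:92799109-92799208, minus strand):
Zfp36: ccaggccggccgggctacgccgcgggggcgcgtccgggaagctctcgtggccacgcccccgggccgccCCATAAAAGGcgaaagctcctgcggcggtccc
The full response element was found in 5 of 20 immediate early genes with a promoter entry (25%), against 2.99% of all 8338 tested genes with one. The CArG box was likewise found in 5 of 20 (25%), against 1.14% of all. The 5 with a CArG box include Egr1, Egr2 and Zfp36, which were lower, and Klf6 and Srf, which were not called. Among all genes lower in Lipo-CGS, 3.71% held the response element and 1.68% the CArG box. These matches are letters in a window and were not measured as bound.

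Every tested gene of the cell cycle and replication list was lower in Lipo-CGS, 39 of 39, with log2 fold changes between -2.16 for Ube2c and -0.75 for Cenpf and a median of -1.29. For all 39 the Lipo-CGS libraries lay below the uninvolved ones, as they did for 3505 of all 11373 genes tested. Pcna, the sliding clamp of DNA polymerase, had 79.3, 109 and 88.6 FPKM in Lipo-CGS libraries, 149, 120.2 and 89.4 FPKM in Lipo libraries, 266, 281 and 286 FPKM in Saline libraries and 378, 304 and 305 FPKM in uninvolved knees. Pcna differed from uninvolved knees by -1.83 ± 0.17 (SE), adjusted p = 7.48e-05. Mki67, the nuclear antigen of cycling cells, had 9.63, 12.1 and 8.86 FPKM in Lipo-CGS libraries, 24.7, 15.8 and 14.5 FPKM in Lipo libraries, 22.4, 22.7 and 23.2 FPKM in Saline libraries and 30.1, 20.99 and 24.2 FPKM in uninvolved knees. Mki67 differed from uninvolved knees by -1.26 ± 0.19 (SE), adjusted p = 5.27e-04. For Mki67, 1 of the 3 Lipo libraries lay within the uninvolved range, and all 3 Lipo-CGS libraries lay below every other library. The replicative helicase subunits Mcm3 (-1.71, adjusted p = 1.41e-04), Mcm5 (-1.72, adjusted p = 3.26e-04) and Mcm7 (-1.61, adjusted p = 1.42e-04) fell, as did the mitotic kinase gene Cdk1 (-1.93, adjusted p = 1.73e-04) and the G1 cyclin gene Ccnd1 (-1.83, adjusted p = 3.83e-04). In Lipo against the same uninvolved libraries 23 of the 39 genes were lower, with a median of -0.70. Lipo-CGS against Lipo had a median of -0.64 with 0 members called, so no member passed the test of that difference itself.

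3 of these genes show the motifs of the cell cycle promoters, with CCAAT boxes and E2F sites in capitals. The E2F letters sought were TTTCCCGC, TTTGGCGC, TTTCGCGC and TTTGCCGC, and where an E2F site overlaps a CCAAT box, or another E2F site read on the other strand, the capitals run together. The windows are chr19:13488593-13488812 (plus strand), chr12:22163179-22163328 (minus strand) and chr20:19265143-19265292 (plus strand):
Mcm5: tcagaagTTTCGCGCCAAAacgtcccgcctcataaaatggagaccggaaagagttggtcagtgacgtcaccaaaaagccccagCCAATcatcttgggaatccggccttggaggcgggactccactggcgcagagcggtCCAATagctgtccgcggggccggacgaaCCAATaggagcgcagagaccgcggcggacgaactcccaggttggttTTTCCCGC
Mcm7: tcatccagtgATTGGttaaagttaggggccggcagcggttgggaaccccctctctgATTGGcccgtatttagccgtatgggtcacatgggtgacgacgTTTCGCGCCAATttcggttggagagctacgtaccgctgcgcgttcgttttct
Cdk1: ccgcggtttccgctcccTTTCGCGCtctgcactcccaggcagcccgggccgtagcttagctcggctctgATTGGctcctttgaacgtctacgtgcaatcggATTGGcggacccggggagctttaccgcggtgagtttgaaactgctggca
An E2F site was found in 7 of 30 cell cycle genes with an entry (23.3%), against 3.51% of all, and a CCAAT box in 22 of 30 (73.3%), against 36.3% of all. Of all genes lower in Lipo-CGS, 43.1% held a CCAAT box and 5.22% an E2F site.

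Of 16 inhibitors of cyclin-dependent kinases and p53 targets, 2 were higher and 2 lower, close to the 11.7% and 14.0% over all genes tested. Without Uninvolved 1 or Uninvolved 2 the counts were 1 and 1, and without any 1 Lipo-CGS library 1 was lower. Cdkn1c, which encodes p57 and marks cells leaving the cycle in growth cartilage, had 36.2, 37.1 and 53.7 FPKM in Lipo-CGS libraries, 4.89, 24.4 and 14.7 FPKM in Lipo libraries, 6.61, 10.8 and 5.59 FPKM in Saline libraries and 11, 10.2 and 7.67 FPKM in uninvolved knees. Cdkn1c differed from uninvolved knees by 2.07 ± 0.44 (SE), adjusted p = 0.00291. All 3 Lipo-CGS libraries were above every library of the other groups. Cdkn2c, which encodes p18, was lower (-1.44 ± 0.17 (SE), adjusted p = 1.56e-04). Cdkn1a, which encodes p21, had 92.1, 106 and 78.1 FPKM in Lipo-CGS, against 111, 121 and 90.2 FPKM in uninvolved knees, a difference of -0.22 (95% interval -0.66 to 0.22) that did not pass the test.

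**Figure D2:**
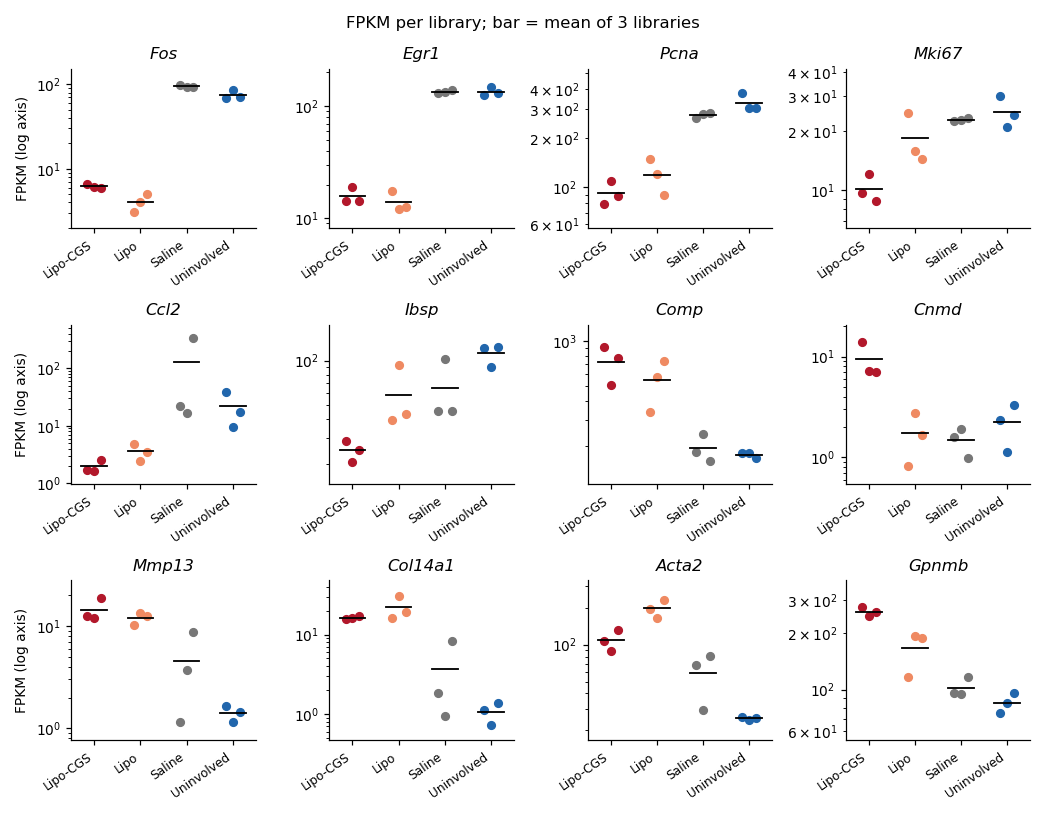
FPKM of 12 genes on log axes, in the 3 libraries of Lipo-CGS, Lipo, Saline and uninvolved knees, with points for libraries and bars for group means. Fos and Egr1 in Lipo-CGS stand near Lipo and far below uninvolved knees, whereas Ibsp and Cnmd in Lipo-CGS lie apart from the other 3 groups.

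Genes of translation, respiration and protein turnover were also lower, and no tested member of these lists was higher. They comprised 58 of 75 ribosomal protein genes (median -0.94), 44 of 74 nuclear genes of the respiratory chain (median -0.64) and 22 of 36 proteasome subunit genes (median -0.68). Rpl3, a protein of the large ribosomal subunit, had 245, 255 and 261 FPKM in Lipo-CGS, against 455, 419 and 397 FPKM in uninvolved knees (-0.74 ± 0.10 (SE), adjusted p = 3.01e-04). Ndufa12, a subunit of complex I, had 8.03, 9.19 and 8.95 FPKM in Lipo-CGS, against 24.7, 18.8 and 15.4 FPKM in uninvolved knees (-1.1 ± 0.15 (SE), adjusted p = 3.83e-04), and Psma7, a subunit of the proteasome core, had 162, 148 and 160.3 FPKM in Lipo-CGS, against 357, 309 and 239.5 FPKM in uninvolved knees (-0.93 ± 0.13 (SE), adjusted p = 3.90e-04). None of these overlapped between the groups, although Uninvolved 3 was nearest to Lipo-CGS in each of the 3 genes. The nucleolar genes Ncl (-0.70, adjusted p = 2.28e-04) and Gar1 (-1.13, adjusted p = 3.65e-04) were among 7 of 25 ribosome biogenesis genes that were lower. Transcripts of the mitochondrial genome were not called in either direction (0 of 11, median -0.18). Without Uninvolved 1 the respiratory count was 23, and without Uninvolved 3 it was 55 and 2 mitochondrial transcripts were lower. Ribosomal protein genes have many near-identical copies in the genome, so counts of single members depend on how reads were shared out among copies.

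These lists hold short genes, and the difference between the groups followed the length of the gene. Over 10074 tested genes with an annotated span, the median log2 fold change was -0.27 in the shortest quintile (up to 8.5 kb) and 0.28 in the longest, where 24.4% were higher and 5.06% lower. In the shortest quintile 5.65% were higher and 27.1% lower. The centered medians of the shortest quintile were -0.05, -0.14 and -0.08 in the 3 Lipo-CGS libraries, against 0.30, 0.26 and 0.03 in the uninvolved libraries, where Uninvolved 3 was the one near 0. The median span was 3.13 kb for ribosomal protein genes, 3.80 kb for immediate early genes, 15.2 kb for cell cycle genes, 20.5 kb for lysosomal genes and 45.2 kb for fibrous matrix genes, against 24.8 kb over all. With each library's trend on gene span removed, which was done after seeing the data, 34 of 73 ribosomal, 17 of 58 respiratory and 15 of 36 proteasome genes with a span were lower. The counts were then 39 of 39 for the cell cycle, 17 lower and 1 higher of 27 for immediate early genes, 14 higher of 25 for fibrous matrix and 17 higher of 30 for the lysosome. What sets this trend was not tested.

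**Figure D3:**
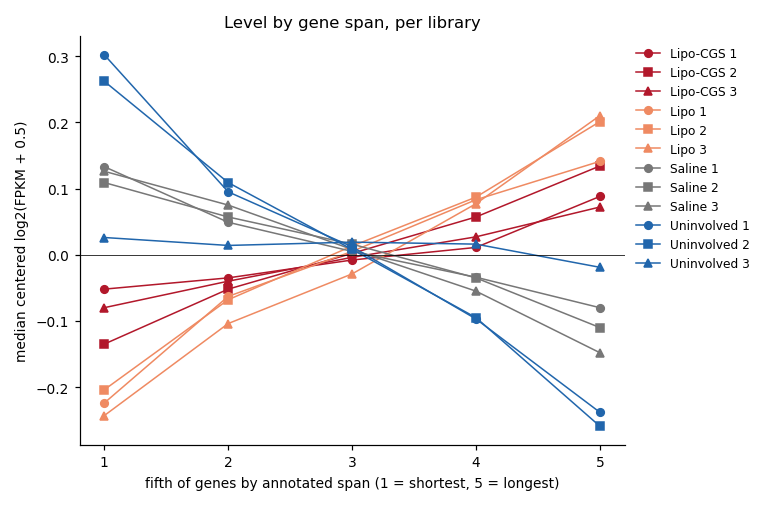
Median of centered log2(FPKM + 0.5) in each quintile of 10074 genes ordered by annotated span, 1 line per library, colored by group. In the shortest quintile the Lipo-CGS lines lie at -0.05 to -0.14 and the uninvolved lines at 0.03 to 0.30, and in the longest quintile their order is turned round.

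The cartilage matrix list had 9 of 33 genes higher and 1 lower (median 0.49), or 2 lower without Uninvolved 3. Comp, which encodes cartilage oligomeric matrix protein, a pentamer that organizes collagen fibrils, had 907, 514 and 771 FPKM in Lipo-CGS libraries, 339.9, 578 and 733 FPKM in Lipo libraries, 183, 242 and 159.7 FPKM in Saline libraries and 181, 182 and 168 FPKM in uninvolved knees. Comp differed from uninvolved knees by 2.01 ± 0.27 (SE), adjusted p = 3.28e-04. Every Lipo-CGS library was above every uninvolved one, and the Lipo libraries were also above them. Cnmd, which encodes chondromodulin, an inhibitor of vessel growth, had 13.9, 7.17 and 7.02 FPKM in Lipo-CGS libraries, 0.81, 2.78 and 1.68 FPKM in Lipo libraries, 1.58, 1.93 and 0.99 FPKM in Saline libraries and 2.36, 1.12 and 3.31 FPKM in uninvolved knees. Cnmd differed from uninvolved knees by 1.85 ± 0.39 (SE), adjusted p = 0.0027. Here the Lipo-CGS libraries lay above all others, and the difference from Lipo had an adjusted p of 0.0607, which misses the threshold. Fmod, a small leucine-rich proteoglycan, had 1181, 816 and 1093 FPKM in Lipo-CGS, against 378, 373 and 416 FPKM in uninvolved knees (1.39 ± 0.27 (SE), adjusted p = 0.0019), and the intermediate layer proteins Cilp (1.38, adjusted p = 0.00213) and Cilp2 (1.21, adjusted p = 4.68e-04) were higher as well. So were the fibril collagen genes Col9a1 (1.16, adjusted p = 0.0163), Col9a2 (1.64, adjusted p = 0.0041) and Col11a1 (0.63, adjusted p = 0.0113). Chad, a leucine-rich protein that binds chondrocyte integrins, was the member that was lower, with 22.8, 13.8 and 18.5 FPKM in Lipo-CGS, against 75.8, 33.9 and 39.7 FPKM in uninvolved knees (-1.35 ± 0.31 (SE), adjusted p = 0.00467).

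The 2 main components of the matrix did not pass the test. Col2a1 differed by 0.57 (95% interval -0.06 to 1.21, adjusted p = 0.12) and Acan by 0.56 (95% interval 0.02 to 1.11, adjusted p = 0.0805). For both genes the 3 Lipo-CGS libraries were nonetheless above all uninvolved ones. Sox9 differed by -0.11 (95% interval -0.53 to 0.31, adjusted p = 0.656). Prg4, which encodes the joint lubricant lubricin, had 478, 236 and 436 FPKM in Lipo-CGS, against 704, 443 and 371 FPKM in uninvolved knees, with overlapping libraries (-0.41, 95% interval -1.17 to 0.34).

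Fibrous matrix genes were the list with the largest share of higher members, 14 of 26 with 0 lower (median 0.85), or 1 lower without Uninvolved 2. Col14a1, a collagen on the surface of collagen fibrils in tendon and skin, had 15.7, 16.3 and 17.1 FPKM in Lipo-CGS libraries, 16.1, 30.5 and 18.9 FPKM in Lipo libraries, 1.82, 0.94 and 8.18 FPKM in Saline libraries and 1.12, 0.74 and 1.36 FPKM in uninvolved knees. Col14a1 differed from uninvolved knees by 3.44 ± 0.50 (SE), adjusted p = 4.40e-04. It had the largest log2 fold change of all genes tested on the scale used, and the Lipo libraries were as high as those of Lipo-CGS. Svep1, a large secreted adhesion protein, had 5.11, 5.12 and 5.24 FPKM in Lipo-CGS, against 0.19, 0.12 and 0.17 FPKM in uninvolved knees (3.1 ± 0.27 (SE), adjusted p = 6.64e-05), and Col12a1, another fibril-associated collagen, had 100.5, 74.7 and 89.3 FPKM in Lipo-CGS, against 12.9, 16.1 and 18.1 FPKM in uninvolved knees (2.45 ± 0.26 (SE), adjusted p = 1.24e-04). By the ratio of mean FPKM, without the added 0.5, Svep1 was 32.2-fold and Col14a1 15.2-fold higher. Fbln5 (2.0, adjusted p = 1.83e-04), Thbs2 (1.65, adjusted p = 1.36e-04) and Fn1 (1.3, adjusted p = 8.88e-04), which encode fibulin-5, thrombospondin-2 and fibronectin, rose by lesser amounts.

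The fibrillar collagens of scar differed from each other. Col3a1 had 497, 538 and 484 FPKM in Lipo-CGS libraries, 897, 991 and 1025 FPKM in Lipo libraries, 343, 257 and 463 FPKM in Saline libraries and 228, 242 and 222 FPKM in uninvolved knees, with Lipo-CGS above uninvolved knees in every library (1.13 ± 0.17 (SE), adjusted p = 5.68e-04) and below every Lipo library. Col1a1, the main collagen of bone and tendon, had 87.9, 84.04 and 82.98 FPKM in Lipo-CGS libraries, 1315, 677 and 1020.3 FPKM in Lipo libraries, 107, 35.8 and 771 FPKM in Saline libraries and 94.3, 20.3 and 129.7 FPKM in uninvolved knees. The Lipo-CGS libraries lay within the range of the uninvolved ones, and the difference of 0.43 had a 95% interval of -1.57 to 2.42 (adjusted p = 0.717). It turned to -0.38 without Uninvolved 2. Vcan, the fibrous proteoglycan versican, had 12.2, 18.4 and 12.9 FPKM in Lipo-CGS, against 13.1, 11.9 and 12.5 FPKM in uninvolved knees (0.19, 95% interval -0.11 to 0.48, adjusted p = 0.273) and was lower than in Lipo (-1.06 ± 0.14 (SE), adjusted p = 0.0135).

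Contractile genes gave 6 of 16 higher and 2 lower, beside 11.7% and 14.0% over all genes tested. Acta2, the smooth muscle actin of myofibroblasts, had 108, 88.6 and 132 FPKM in Lipo-CGS libraries, 197, 166 and 229.8 FPKM in Lipo libraries, 67.8, 29.3 and 80.5 FPKM in Saline libraries and 25.9, 24.2 and 25.4 FPKM in uninvolved knees. Acta2 differed from uninvolved knees by 2.08 ± 0.30 (SE), adjusted p = 4.02e-04. The Lipo-CGS libraries lay above all uninvolved and Saline libraries and below all Lipo libraries. Myosin light chain kinase (Mylk, 1.39, adjusted p = 1.18e-04) and caldesmon (Cald1, 1.04, adjusted p = 2.32e-04) were higher, whereas Cyr61, an early target of the mechanical cofactor YAP, was lower (-0.99, adjusted p = 8.50e-04). Of the fibroblast and synovial markers 5 of 14 were higher and 2 lower. Pdgfrb, the receptor for platelet-derived growth factor on mesenchymal cells, had 83.6, 86.2 and 82.4 FPKM in Lipo-CGS, against 37.02, 35.9 and 35.99 FPKM in uninvolved knees (1.2 ± 0.09 (SE), adjusted p = 3.66e-05), and Fap, a surface protease of activated fibroblasts, had 49.8, 67.8 and 59.3 FPKM in Lipo-CGS, against 15.5, 17 and 19.9 FPKM in uninvolved knees (1.72 ± 0.24 (SE), adjusted p = 3.38e-04). The median log2 fold change of the 14 was 0.565, with 9 positive and 5 negative differences, whereas the sum of the list given above was lower in Lipo-CGS and is carried by its most abundant members. Of these, S100a4, a calcium-binding protein of motile cells, had 1497, 1539.5 and 1451 FPKM in Lipo-CGS, against 4639, 3673 and 2715 FPKM in uninvolved knees (-1.26 ± 0.23 (SE), adjusted p = 0.00135), and Vim, the intermediate filament vimentin, had 2368, 2412 and 2229 FPKM in Lipo-CGS, against 3719.8, 3049 and 2424 FPKM in uninvolved knees and did not pass the test (-0.37, adjusted p = 0.247). The part of fibroblasts or synovial cells in these differences was not tested.

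Hypertrophy and mineralization genes were lower in 6 of 13 and higher in 2 (median -0.54). Ibsp, the bone sialoprotein that nucleates mineral, had 28.6, 20.7 and 24.96 FPKM in Lipo-CGS libraries, 39.3, 93.2 and 43.6 FPKM in Lipo libraries, 45.8, 103 and 45.8 FPKM in Saline libraries and 122, 90.7 and 123 FPKM in uninvolved knees. Ibsp differed from uninvolved knees by -2.15 ± 0.35 (SE), adjusted p = 7.35e-04. Its Lipo-CGS libraries were the lowest of all 12. Spp1, which encodes osteopontin, had 337, 353 and 372 FPKM in Lipo-CGS, against 2049, 1184 and 1246 FPKM in uninvolved knees (-2.03 ± 0.33 (SE), adjusted p = 7.61e-04), and Phospho1, a phosphatase that starts mineral in matrix vesicles, had 6.05, 4.92 and 5.35 FPKM in Lipo-CGS, against 20.8, 14.4 and 17.3 FPKM in uninvolved knees (-1.59 ± 0.20 (SE), adjusted p = 2.37e-04). Col10a1, the collagen of hypertrophic cartilage, had 38.5, 41.2 and 41.7 FPKM in Lipo-CGS, against 67.7, 84.6 and 141 FPKM in uninvolved knees (-1.2 ± 0.34 (SE), adjusted p = 0.0127), without overlap. Alpl, the tissue-nonspecific alkaline phosphatase, had 4.78, 2.47 and 4.19 FPKM in Lipo-CGS, against 7.93, 6.81 and 8.09 FPKM in uninvolved knees (-0.95 ± 0.27 (SE), adjusted p = 0.0125), a call that was lost without Lipo-CGS 2 (-0.70, adjusted p = 0.0534). Runx2, the transcription factor that drives hypertrophy, had an adjusted p of 0.0116 at a difference of -0.54, which is under the fold threshold. The 2 higher members were Mmp13 and Col4a5.

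Proteases that cleave matrix rose, in 11 of 23 genes with 1 lower (median 0.62). Mmp13, the chief collagenase of osteoarthritic cartilage, had 12.4, 11.9 and 18.6 FPKM in Lipo-CGS libraries, 10.2, 13.4 and 12.5 FPKM in Lipo libraries, 1.15, 3.71 and 8.7 FPKM in Saline libraries and 1.66, 1.16 and 1.43 FPKM in uninvolved knees. Mmp13 differed from uninvolved knees by 2.93 ± 0.45 (SE), adjusted p = 5.98e-04. All Lipo-CGS and Lipo libraries were above the uninvolved ones, and the Saline libraries reached from the uninvolved level upward. Adamts5, an aggrecanase, had 18.9, 21.6 and 23.3 FPKM in Lipo-CGS, against 7.02, 5.98 and 9.54 FPKM in uninvolved knees (1.46 ± 0.19 (SE), adjusted p = 2.40e-04), and the other aggrecanase, Adamts4, had 2.49, 1.62 and 2.32 FPKM in Lipo-CGS, against 1.33, 1.15 and 1.14 FPKM in uninvolved knees (0.62 ± 0.15 (SE), adjusted p = 0.00676). The procollagen proteinases Adamts2 (1.53, adjusted p = 5.57e-04) and Adamts14 (0.95, adjusted p = 7.94e-04) were higher too, as was Mmp14, a membrane collagenase (1.21, adjusted p = 0.00148). Mmp3, which encodes stromelysin, was the member that was lower, with 356, 219.6 and 283 FPKM in Lipo-CGS libraries, 135, 174 and 149 FPKM in Lipo libraries, 599, 704 and 633 FPKM in Saline libraries and 541, 503 and 466 FPKM in uninvolved knees. Mmp3 differed from uninvolved knees by -0.84 ± 0.16 (SE), adjusted p = 0.00188. Mmp28 had 0.24, 0.22 and 0.13 FPKM in Lipo-CGS, against 0.66, 0.49 and 0.37 FPKM in uninvolved knees and did not pass (-0.52, adjusted p = 0.292). Without Lipo-CGS 2 or Uninvolved 3, 2 genes were lower. The count of higher genes was 7 without Lipo-CGS 1 and also 7 without Lipo-CGS 3. Adamts4 was under the fold threshold without Lipo-CGS 1 (0.52, adjusted p = 0.032) and without Lipo-CGS 3 (0.56, adjusted p = 0.0294). The call of Mmp23 was lost when any 1 of the 6 libraries except Uninvolved 2 was left out, with adjusted p values from 0.0531 to 0.129.

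Inhibitors of these proteases split evenly, 3 of 11 higher and 3 lower, beside 11.7% and 14.0% over all genes tested. Reck, a membrane-anchored inhibitor of metalloproteinases, had 379, 316 and 372 FPKM in Lipo-CGS, against 87.2, 90.9 and 132 FPKM in uninvolved knees (1.8 ± 0.26 (SE), adjusted p = 4.61e-04), and Timp3, the matrix-bound inhibitor of aggrecanases, had 1485, 894 and 1552 FPKM in Lipo-CGS, against 363, 394 and 599.5 FPKM in uninvolved knees (1.53 ± 0.38 (SE), adjusted p = 0.00645). Timp1, the soluble inhibitor, was lower, with 271, 246 and 272 FPKM in Lipo-CGS, against 688, 554 and 401 FPKM in uninvolved knees (-1.02 ± 0.17 (SE), adjusted p = 7.35e-04). Serpine2, an inhibitor of thrombin and urokinase, was lower (-1.18, adjusted p = 1.07e-04), and Plaur, which encodes the urokinase receptor, had 4.26, 5.37 and 3.38 FPKM in Lipo-CGS, against 33.8, 35.2 and 20.3 FPKM in uninvolved knees (-2.63 ± 0.30 (SE), adjusted p = 1.56e-04).

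**Figure D4:**
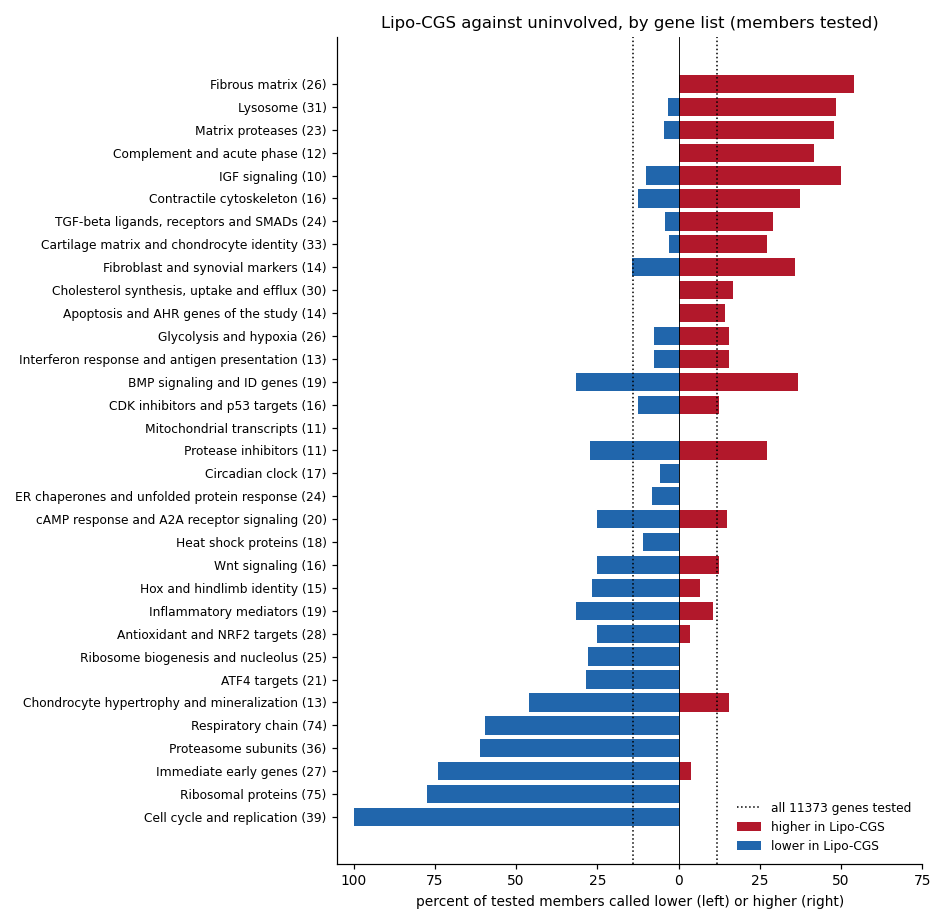
Percent of tested members called higher (red, right) or lower (blue, left) in Lipo-CGS against uninvolved knees for each list with at least 10 tested genes, whose number stands in parentheses. Dotted lines mark 11.7% and 14.0%, the shares over all 11373 genes, and the bars of the cell cycle (39 of 39 lower) and of the fibrous matrix reach furthest on either side.

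Among signaling genes, TGF-β members were higher in 7 of 24 and lower in 1 (median 0.35), beside 11.7% and 14.0% over all genes tested. Tgfb3, a ligand, had 138, 150.5 and 138 FPKM in Lipo-CGS libraries, 218, 185 and 202 FPKM in Lipo libraries, 74.2, 53.98 and 45.9 FPKM in Saline libraries and 49.3, 51.5 and 57.6 FPKM in uninvolved knees. Tgfb3 differed from uninvolved knees by 1.42 ± 0.15 (SE), adjusted p = 1.21e-04. The ligand gene Tgfb2 had 66.98, 61.5 and 70.1 FPKM in Lipo-CGS libraries, 77.2, 84.3 and 81.9 FPKM in Lipo libraries, 35.01, 30.1 and 28.3 FPKM in Saline libraries and 25.3, 27.5 and 32.3 FPKM in uninvolved knees. Tgfb2 differed from uninvolved knees by 1.21 ± 0.11 (SE), adjusted p = 6.64e-05. For both ligands Lipo-CGS was above uninvolved knees and below Lipo in every library. Tgfb1 had 64.6, 61.4 and 59.9 FPKM in Lipo-CGS, against 90.2, 82.6 and 83.1 FPKM in uninvolved knees, lower in every library but under the fold threshold (-0.46 ± 0.13 (SE), adjusted p = 0.0135). The type II receptor Tgfbr2 (1.34, adjusted p = 7.34e-04) and the effector Smad3 (0.88, adjusted p = 4.78e-04) were higher. In the BMP branch 7 of 19 genes were higher and 6 lower. The ligand Bmp4 had 13.5, 14.4 and 18.9 FPKM in Lipo-CGS, against 6.1, 5.43 and 5.26 FPKM in uninvolved knees (1.39 ± 0.19 (SE), adjusted p = 3.02e-04), and its extracellular antagonist Chrd was higher as well (0.90, adjusted p = 2.48e-04). The ID genes, direct targets of BMP receptors, were lower for Id1 (-1.47, adjusted p = 3.38e-04), Id3 (-0.66, adjusted p = 0.0115) and Id4 (-0.59, adjusted p = 0.0209). Without Uninvolved 1 the BMP list had 3 lower genes and the TGF-β list 0, and with the gene span trend removed 4 BMP genes were higher and 3 lower.

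Of 4 receptors for adenosine, 0 reached the filter on low values. Adora2a, the receptor for CGS21680, had 0.12, 0.05 and 0.05 FPKM in Lipo-CGS, against 0.10, 0.24 and 0.10 FPKM in uninvolved knees, and Adora1 had 0.84, 0.40 and 0.70 FPKM in Lipo-CGS, against 0.19, 0.23 and 0.31 FPKM in uninvolved knees. Adora3 is listed at 0 in all 12 libraries, from which nothing is read. Of 20 tested genes around cyclic AMP, 3 were higher and 5 lower, beside 11.7% and 14.0% over all genes tested. The higher ones were Nt5e, the ectoenzyme CD73 that makes adenosine (1.01, adjusted p = 9.28e-04), Pde4b, a phosphodiesterase that degrades cyclic AMP (1.06, adjusted p = 8.06e-04), and the anchoring protein gene Akap12 (1.26, adjusted p = 0.00205). Pde4b had 7.72, 7.64 and 8.95 FPKM in Lipo-CGS libraries, 3.83, 5.43 and 6.47 FPKM in Lipo libraries, 4.81, 5.28 and 4.56 FPKM in Saline libraries and 3.15, 3.28 and 4.6 FPKM in uninvolved knees, with Lipo-CGS above every other library. The lower ones were Nr4a1, Fosb, Sik1 (-1.39, adjusted p = 4.02e-04), Gem (-1.32, adjusted p = 0.00103) and Rgs2 (-0.74, adjusted p = 0.0302), which are known as cyclic AMP-responsive genes and, in part, also stand in the immediate early list.

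Wnt genes gave 2 of 16 higher and 4 lower, beside 11.7% and 14.0% over all genes tested. Axin2, a feedback target of the pathway, had 0.82, 0.87 and 0.74 FPKM in Lipo-CGS, against 1.75, 1.83 and 1.61 FPKM in uninvolved knees (-0.77 ± 0.15 (SE), adjusted p = 0.00165), and the coreceptor Lrp6 was higher (0.95, adjusted p = 0.00187). In IGF signaling 5 of 10 genes were higher, including the binding protein gene Igfbp5 (1.42, adjusted p = 0.0062) and the receptors Igf1r (0.59, adjusted p = 0.03) and Igf2r (0.94, adjusted p = 6.03e-04), and Igf2 was lower (-1.24, adjusted p = 0.0016). Mir675, a microRNA gene inside the imprinted H19 transcript, whose reads cannot be told from those of its host here, was listed at 44.2, 44.6 and 25.7 FPKM in Lipo-CGS, against 196, 332 and 268 FPKM in uninvolved knees (-2.79 ± 0.50 (SE), adjusted p = 0.00122). Without Lipo-CGS 2 the Wnt list had 4 higher genes and the IGF list 3, a count also found without Uninvolved 1 or Uninvolved 2, and without Lipo-CGS 3 the Wnt list had 2 lower.

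Lysosomal genes were higher in 15 of 31, with 1 lower (median 0.57). Gpnmb, a glycoprotein of lysosomes and melanosomes, had 274, 246 and 258 FPKM in Lipo-CGS libraries, 117, 193 and 189 FPKM in Lipo libraries, 95.3, 94.6 and 117 FPKM in Saline libraries and 74.8, 85.2 and 95.9 FPKM in uninvolved knees. Gpnmb differed from uninvolved knees by 1.6 ± 0.18 (SE), adjusted p = 1.36e-04. Its 3 Lipo-CGS libraries were above every library of the other groups. The acid hydrolases Gaa, acid alpha-glucosidase (1.2, adjusted p = 1.36e-04), and Gla, alpha-galactosidase A (1.05, adjusted p = 1.36e-04), were higher. Tfeb, a transcription factor that drives lysosomal genes, was the lower member, with 9.91, 8.93 and 10 FPKM in Lipo-CGS, against 18.9, 17.4 and 14.4 FPKM in uninvolved knees (-0.77 ± 0.11 (SE), adjusted p = 3.38e-04). In Lipo against the same uninvolved libraries 7 of the 31 genes were higher. Against Lipo itself the list had a median of 0.35 in Lipo-CGS and 0 members called. Lamp1 and Ctsd, the membrane protein and cathepsin often used as markers, differed by 0.35 and 0.41, under the fold threshold.

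In lipid metabolism 5 of 30 genes were higher and 0 lower, beside 11.7% higher and 14.0% lower over all genes tested, and the median of 0.01 was that of all genes. Scd, the desaturase that makes monounsaturated fatty acids, had 59.3, 38.03 and 55.4 FPKM in Lipo-CGS, against 13.5, 13.2 and 19.6 FPKM in uninvolved knees (1.69 ± 0.22 (SE), adjusted p = 2.48e-04), and Lss, lanosterol synthase, was higher (1.0, adjusted p = 2.77e-04). The efflux pump gene Abca1 was called (0.67, adjusted p = 0.0337), a call lost when any 1 of the 6 libraries was left out. Without Lipo-CGS 1 the list had 3 higher genes, and without Lipo-CGS 3 or Uninvolved 3 it had 1 lower. In glycolysis and hypoxia 4 of 26 genes were higher and 2 lower. Pfkfb3, an activator of glycolysis, had 76.3, 59.3 and 74.5 FPKM in Lipo-CGS, against 30.6, 31.9 and 36.2 FPKM in uninvolved knees (1.07 ± 0.18 (SE), adjusted p = 8.60e-04), and Eno1, an enolase, was lower (-1.0, adjusted p = 7.61e-04), but the list had 1 higher gene without Uninvolved 1 and 2 without Lipo-CGS 1, and 1 lower gene without any 1 of the libraries except Uninvolved 3.

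Of the stress programs, the targets of ATF4, a factor of amino acid starvation, were lower in 6 of 21 and higher in 0, or 1 without Lipo-CGS 3 or Uninvolved 3. Chac1, a glutathione-degrading enzyme induced by ATF4, had 11.5, 11.5 and 12.5 FPKM in Lipo-CGS, against 30.2, 33.99 and 28.7 FPKM in uninvolved knees (-1.35 ± 0.10 (SE), adjusted p = 3.21e-05), and the serine synthesis gene Phgdh had 40.2, 40.6 and 40.6 FPKM in Lipo-CGS, against 89.4, 88.2 and 75.1 FPKM in uninvolved knees (-1.04 ± 0.09 (SE), adjusted p = 4.87e-05). Neither gene overlapped between the groups. Antioxidant genes gave 1 of 28 higher (2 without Uninvolved 3) and 7 lower, beside 11.7% and 14.0% over all genes tested. Nqo1, a classical NRF2 target, was lower (-1.45, adjusted p = 0.00986), as was the peroxiredoxin gene Prdx1 (-1.03, adjusted p = 0.00121), while Prdx6 was higher (0.63, adjusted p = 6.37e-04). Chaperones of the endoplasmic reticulum were called in 2 of 24 genes, both lower, and without Uninvolved 3 a further 2 were higher. Hspa5, which encodes the main one, BiP, differed by -0.38 (adjusted p = 0.0194), under the fold threshold.

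Inflammatory mediators were lower in 6 of 19 genes and higher in 2 (median -0.35), or in 1 without Lipo-CGS 1 or Uninvolved 2. Over all genes tested, 14.0% were lower and 11.7% higher. Ccl2, which attracts monocytes, had 1.7, 1.65 and 2.58 FPKM in Lipo-CGS libraries, 4.87, 2.46 and 3.52 FPKM in Lipo libraries, 22.4, 16.9 and 341 FPKM in Saline libraries and 38.8, 9.57 and 17.2 FPKM in uninvolved knees. Ccl2 differed from uninvolved knees by -2.97 ± 0.89 (SE), adjusted p = 0.0166. The related Ccl7 had 0.55, 0.34 and 0.6 FPKM in Lipo-CGS, against 21.5, 3.92 and 4.78 FPKM in uninvolved knees (-3.02 ± 0.92 (SE), adjusted p = 0.0181). Every Lipo-CGS and Lipo library lay below every Saline and uninvolved one, and Saline 3 stood apart at the top for both genes. For Lipo-CGS against uninvolved knees, the rule for naming the largest falls required this. Without Uninvolved 1 neither chemokine was called, with differences of -2.45 for Ccl2 (adjusted p = 0.0716) and -2.29 for Ccl7 (adjusted p = 0.0823), and Ccl7 was not called without Lipo-CGS 2 (-2.9, adjusted p = 0.0506). Cxcl10, a chemokine of the interferon response, had 0.82, 1.24 and 1.1 FPKM in Lipo-CGS, against 8.43, 7.43 and 4.66 FPKM in uninvolved knees (-2.21 ± 0.23 (SE), adjusted p = 1.28e-04). Ptgs2, the inducible cyclooxygenase, had 0.62, 1.2 and 0.95 FPKM in Lipo-CGS, against 2.67, 3.5 and 2.17 FPKM in uninvolved knees (-1.21 ± 0.28 (SE), adjusted p = 0.00481), and Lif, a cytokine of the interleukin-6 family, was lower (-1.18, adjusted p = 0.00172). Cxcl1 had 41.6, 22.5 and 39.4 FPKM in Lipo-CGS, against 85.99, 71.7 and 39.6 FPKM in uninvolved knees and missed the threshold (-0.90, adjusted p = 0.0722). Icam1, an adhesion molecule for leukocytes, was higher, with 216, 172 and 220.1 FPKM in Lipo-CGS, against 115, 105 and 94.3 FPKM in uninvolved knees (0.94 ± 0.21 (SE), adjusted p = 0.0033).

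Complement and acute phase genes rose, in 5 of 12 with 0 lower (median 0.67). C3, the central complement component, had 44.9, 19.2 and 49.1 FPKM in Lipo-CGS libraries, 2.62, 24.5 and 33.9 FPKM in Lipo libraries, 4.13, 16.8 and 16.3 FPKM in Saline libraries and 7.51, 3.71 and 5.11 FPKM in uninvolved knees. C3 differed from uninvolved knees by 2.62 ± 0.79 (SE), adjusted p = 0.0174. The complement proteases C1s (1.9, adjusted p = 0.01) and C1r (1.41, adjusted p = 0.00726) were higher, and Orm1, an acute phase glycoprotein, had 15.9, 2.95 and 28.5 FPKM in Lipo-CGS, against 2.3, 0.91 and 0.89 FPKM in uninvolved knees (2.74 ± 0.78 (SE), adjusted p = 0.013). In C3, C1s and Orm1, Lipo 1 had the lowest level of the 12 libraries. C3 was not called without Lipo-CGS 1 (2.44, adjusted p = 0.0569), without Lipo-CGS 3 (2.38, adjusted p = 0.0578) or without Uninvolved 2 (2.4, adjusted p = 0.0601), nor was Orm1 without Lipo-CGS 3 (2.1, adjusted p = 0.0566), where the list had 3 higher genes. In the interferon list 2 of 13 genes were higher and 1 lower, near the 11.7% and 14.0% over all genes tested. The higher ones included Irf9 (0.71, adjusted p = 0.00181), a subunit of the interferon-activated factor ISGF3. The lower one was the immunoproteasome subunit Psmb9 (-0.80, adjusted p = 0.00797). Without Uninvolved 3, 2 members of the interferon list were lower.

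**Figure D5:**
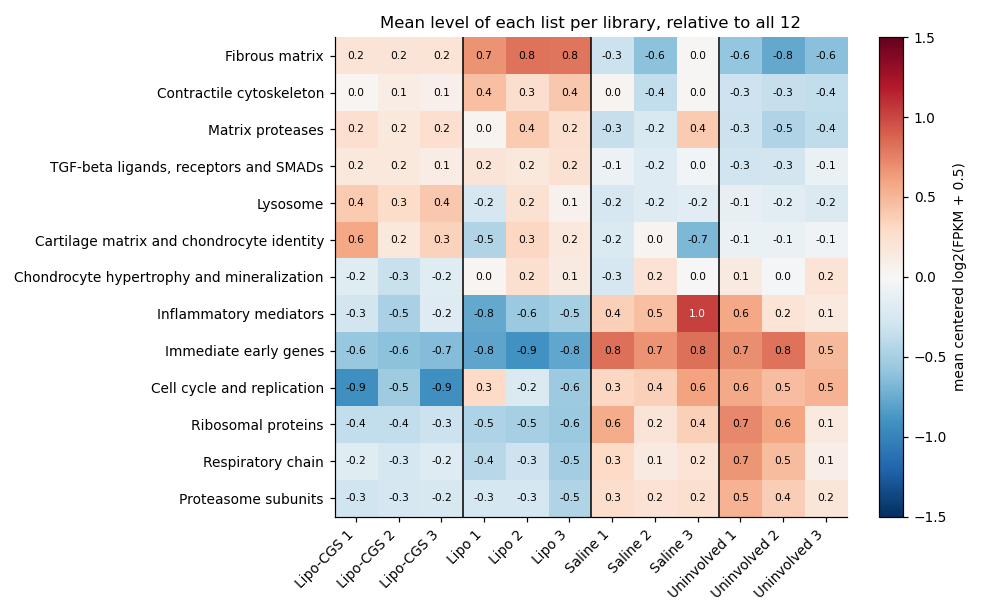
Mean of centered log2(FPKM + 0.5) over the tested members of 13 lists in each library, with Lipo-CGS at the left and uninvolved knees at the right, red above and blue below the mean of all 12 libraries. Lipo-CGS stands with Lipo and against uninvolved knees for immediate early and ribosomal genes, and has cell cycle means of -0.92, -0.53 and -0.92, against 0.57, 0.47 and 0.53 in uninvolved knees.

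The remaining large differences belong to no list. Nnat, an imprinted membrane proteolipid, had 23.2, 16.2 and 25.9 FPKM in Lipo-CGS, against 1.83, 2.35 and 1.67 FPKM in uninvolved knees (3.17 ± 0.34 (SE), adjusted p = 1.30e-04). Serpina6, the corticosteroid-binding globulin, had 39.8, 23.1 and 49.1 FPKM in Lipo-CGS, against 4.91, 4.72 and 2.87 FPKM in uninvolved knees (2.98 ± 0.55 (SE), adjusted p = 0.0014), and Npvf, a neuropeptide precursor, had 4.03, 3.81 and 4.87 FPKM in Lipo-CGS libraries, 7.73, 10.9 and 8.74 FPKM in Lipo libraries, 0.05, 0 and 0 FPKM in Saline libraries and 0.24, 0.55 and 0.13 FPKM in uninvolved knees. Npvf differed from uninvolved knees by 2.58 ± 0.19 (SE), adjusted p = 3.26e-05. Npvf was near 0 in Saline and uninvolved knees and higher in every library given liposomes. Enpp2, which encodes autotaxin, the enzyme that makes lysophosphatidic acid, had 458, 267 and 459 FPKM in Lipo-CGS, against 58.4, 64.7 and 74.1 FPKM in uninvolved knees (2.54 ± 0.49 (SE), adjusted p = 0.00168), and Nid1, a basement membrane protein, had 11.1, 17.01 and 15.1 FPKM in Lipo-CGS, against 1.63, 1.72 and 2.96 FPKM in uninvolved knees (2.53 ± 0.40 (SE), adjusted p = 6.70e-04). All 3 Lipo-CGS libraries were above the uninvolved ones for each of these genes, which the rule for naming the largest rises required. Among the falls, Hspb7, a small heat shock protein of muscle, had 1.5, 1.44 and 1.68 FPKM in Lipo-CGS, against 20.1, 11.8 and 11.6 FPKM in uninvolved knees (-2.83 ± 0.52 (SE), adjusted p = 0.00133), and Fam25a had 19.8, 42.8 and 13.6 FPKM in Lipo-CGS, against 241, 223 and 90.9 FPKM in uninvolved knees (-2.88 ± 0.61 (SE), adjusted p = 0.00286). Ns5atp9 was lower (-2.36, adjusted p = 8.54e-05) and the unnamed gene model AABR07073181.1 higher (2.43, adjusted p = 4.44e-04).

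The 19 genes that separated Lipo-CGS from Lipo, picked out here after their values were seen, fell into 10 that were also called against uninvolved knees, 6 higher and 4 lower, and 9 that were not. Myoc, which encodes the secreted protein myocilin, had 30.7, 27.2 and 41.2 FPKM in Lipo-CGS libraries, 4.84, 8.27 and 7.58 FPKM in Lipo libraries, 14.4, 6.53 and 5.9 FPKM in Saline libraries and 19.2, 17.4 and 9.31 FPKM in uninvolved knees. Myoc differed from uninvolved knees by 1.12 ± 0.34 (SE), adjusted p = 0.0176. Rcan1, a feedback inhibitor of calcineurin, had 72.7, 55.8 and 75.5 FPKM in Lipo-CGS libraries, 28.5, 41.5 and 31.7 FPKM in Lipo libraries, 35.5, 34.9 and 41.6 FPKM in Saline libraries and 36.1, 39.4 and 37.2 FPKM in uninvolved knees. Rcan1 differed from uninvolved knees by 0.84 ± 0.15 (SE), adjusted p = 0.00105. Both were higher in Lipo-CGS than in any other library, and against Lipo the differences were 2.19 ± 0.34 (SE), adjusted p = 0.0309 for Myoc and 1.0 ± 0.15 (SE), adjusted p = 0.0212 for Rcan1. The growth factor gene Pdgfc had 7.64, 9.36 and 8.66 FPKM in Lipo-CGS libraries, 17.9, 22.2 and 19.4 FPKM in Lipo libraries, 4.18, 5.45 and 6.21 FPKM in Saline libraries and 2.79, 2.71 and 4.01 FPKM in uninvolved knees. Pdgfc differed from uninvolved knees by 1.32 ± 0.16 (SE), adjusted p = 2.03e-04, with Lipo-CGS between Lipo and the other 2 groups. Aldh1a3, which makes retinoic acid, had 1.83, 2.07 and 2.05 FPKM in Lipo-CGS libraries, 5.82, 5.19 and 4.79 FPKM in Lipo libraries, 4.91, 5.07 and 4.83 FPKM in Saline libraries and 5.02, 3.75 and 5.35 FPKM in uninvolved knees. Aldh1a3 differed from uninvolved knees by -1.06 ± 0.13 (SE), adjusted p = 1.73e-04, and the 3 Lipo-CGS libraries lay below all others. The 9 genes not called against uninvolved knees were Serpinb2, Tnfsf18, Avpr1a and Vcan, lower in Lipo-CGS than in Lipo, and Grhpr, Cxcl16, Rnd1, Socs3 and Tbx4, higher than in Lipo. Among them, Socs3 had 18.6, 12.7 and 16.8 FPKM in Lipo-CGS libraries, 7.62, 8.56 and 8.39 FPKM in Lipo libraries, 16.1, 19.4 and 18.4 FPKM in Saline libraries and 13.5, 15.7 and 17.1 FPKM in uninvolved knees. Cxcl16, a chemokine held on membranes, had 10.98, 11.9 and 11.02 FPKM in Lipo-CGS libraries, 5.75, 7.1 and 6.37 FPKM in Lipo libraries, 12.5, 14.8 and 15.1 FPKM in Saline libraries and 13.03, 12.9 and 13.6 FPKM in uninvolved knees (-0.21, 95% interval -0.43 to -0.0011). Tnfsf18, a cytokine of the TNF family, had 9.19, 13.4 and 11.7 FPKM in Lipo-CGS libraries, 58.1, 26.1 and 36.1 FPKM in Lipo libraries, 17.1, 10.5 and 12.9 FPKM in Saline libraries and 7.43, 7.63 and 11.3 FPKM in uninvolved knees (0.37, 95% interval -0.23 to 0.97).

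Other lists had few calls, to be read against 11.7% higher and 14.0% lower over all genes tested. Clock genes were called in 1 of 17 (1 more, higher, without Uninvolved 3), with Ciart, a repressor of the clock, lower (-0.83, adjusted p = 0.00115). Heat shock genes were lower in 2 of 18 and higher in 0, with 1 lower without Uninvolved 1 or Uninvolved 2 and 4 without Uninvolved 3. Apoptosis and aryl hydrocarbon receptor genes gave 2 of 14 higher, the death receptor Fas (0.87, adjusted p = 0.00159) and the survival factor Bcl2 (0.66, adjusted p = 0.0166). Of this list the study itself names Ahrr and S1pr3. S1pr3 lay between -0.54 and -0.16 over the alternative settings, with a lowest limma adjusted p of 0.287. Ahrr, the repressor of the aryl hydrocarbon receptor, had 0.47, 0.95 and 0.56 FPKM in Lipo-CGS libraries, 4.52, 2.37 and 2.72 FPKM in Lipo libraries, 0.72, 0.26 and 2.07 FPKM in Saline libraries and 0.25, 0.4 and 0.39 FPKM in uninvolved knees. Its Lipo-CGS libraries were above the uninvolved ones, a difference that did not pass the test (0.44, 95% interval -0.37 to 1.25), and all Lipo libraries were higher. Among 15 limb identity genes 1 was higher, Shox2 (0.77, adjusted p = 0.00166), and 4 were lower. The lower count was 1 without Uninvolved 1 and 2 without Lipo-CGS 2, and 2 were higher without Lipo-CGS 2, Uninvolved 2 or Uninvolved 3. Bcl2 was not called without Lipo-CGS 1 (0.57, adjusted p = 0.0648), Uninvolved 1 (0.57, adjusted p = 0.0665) or Uninvolved 2 (0.53, adjusted p = 0.0718).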

How the data were processed

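RNA sequencing was carried out on chondrocytes pooled from 3 animals per library, 12 libraries in 4 groups of 3. According to the study's methods, the reads were aligned to the rat genome Rnor_6.0 with STAR 2.4.5a, screened with FastQ Screen 0.5.2 and counted with featureCounts (Subread 1.4.6-p3), whereas the submitters' processing notes name HTSeq. The authors deposited FPKM values, normalized to gene length and library size, for 28546 gene symbols, with 2 decimals and no counts, so that the number of reads per library is unknown. Depth relative to the median library was estimated from the lowest values of 192 weakly expressed genes. It was 0.81 to 1.14 over the 12 libraries, with 0.86, 0.94 and 1.14 in uninvolved knees and 1.0, 1.0 and 1.05 in Lipo-CGS. The study's own test was made for counts. Because FPKM are not counts, limma 3.58.1 (R 4.3.3) was used instead, on log2(FPKM + 0.5).

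Groups followed the sample titles. Genes with at least 1 FPKM in 3 libraries were kept (11373), all 12 libraries were fitted with 1 mean per group and a trended prior, and p-values were adjusted by Benjamini-Hochberg over all genes tested, with no replicate block. Intervals are 95% intervals of the fit. Every p-value in the text comes from this limma fit or an alternative of it. A two-sided exact permutation test of 3 against 3 libraries cannot go below 0.1 and was not used. The procedure was tested on simulated data.

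The members, gene lists and tests were chosen with earlier results of these data known. Genes were named by rule: the 12 largest rises and 12 largest falls among called genes whose libraries do not overlap and whose mean is at least 1 FPKM in either group, the defining members of each list, and the 3 members of each list with the smallest adjusted p. A few genes that this rule names are not reported here. Gene spans and promoters came from RefSeq on GRCr8, and 10079 of the tested symbols were found there. Alternatives were other pseudocounts, filters, thresholds, sample sets and weights, recentring, a replicate block and leaving out each library. The correction for gene span was chosen after seeing the data.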

Additional observations from a re-analysis of the deposited data

How the results depend on the processing

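Against uninvolved knees, the counts of 1331 higher and 1595 lower genes moved by less than 1.5 times under every alternative run except a fold change over 2. With that threshold they were 370 and 555, and those against Saline were 257 and 395. The genes behind similar totals were not all the same. Of the 2926 genes called in the main fit, 1859 were among the 2249 called after the gene span correction. Genes without an annotated span drop out of that fit. The comparison with Lipo, 9 higher and 10 lower, moved far more. It gave 6 lower with a filter of 5 FPKM, 31 lower when only those groups were fitted, 15 higher and 33 lower without Saline in the fit, 47 and 61 without Saline replicate 3, 184 and 188 with array weights, 4 higher with a fold change over 2, 0 and 3 at an adjusted p under 0.01, and 35 and 26 after the gene span correction. With each Lipo-CGS or uninvolved library left out in turn it gave 0 (without Lipo-CGS 1) to 69 higher and 3 (without Lipo-CGS 1) to 46 lower, the highest counts without Uninvolved 3. These counts came from limma, in which 2087 genes had an unadjusted p under 0.05 in that comparison. The causes were not tested.

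Genes near 0 changed sign. Over the libraries left out Hmgcs1 lay between -0.091 and 0.021, Mt-atp6 between -0.66 and 0.0055 and Col1a1 between -0.38 and 0.94. Sox9 was at 0.13 and Acp5 at 0.10 after the span correction.

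Replicate numbers are shared by the groups. The deviations of same-numbered Lipo-CGS and uninvolved libraries from their group means had correlations of 0.039, -0.10 and -0.22 for numbers 1, 2 and 3. With 3 libraries per group, such correlations cannot show whether libraries of the same number share animals. A replicate block in the fit left 1324 higher and 1583 lower calls against uninvolved knees, and 2 higher calls against Lipo. FPKM without counts give no interval for counting error, and weak genes such as Adora2a could not be tested.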
